A study of Mus musculus with 10 samples.

Results

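Adrb1, Cnr2, Ptger4 and Adora2a encode 4 receptors that couple to heterotrimeric G proteins and act on cyclic AMP (cAMP): a beta-adrenergic receptor, a cannabinoid receptor, a prostaglandin E2 receptor and an adenosine receptor. The genes were chosen by name as receptors for neurotransmitters and lipid or purine mediators, with earlier results of these data known. All 4 were among the 14450 genes of the deposited table. They were read in bulk RNA-seq libraries of mature B cells isolated by FACS from mouse bone marrow, with 5 libraries of Chat+ cells and 5 libraries of Chat- cells. All 10 libraries came from Chat-GFP mice in steady state, a reporter strain for choline acetyltransferase, the enzyme that makes acetylcholine, so the reporter is carried by both groups and no library is from an untagged or treated animal. The labels give no age and do not say whether libraries of equal replicate number share mice, so the main fit did not pair them. They also do not say whether the libraries came from separate or pooled mice. The p-values therefore measure only the spread between these libraries, which may be technical. Because each library is a bulk sample, fewer cells of a type and less RNA per cell cannot be told apart.

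Adrenergic receptors bind noradrenaline from sympathetic nerves, which enter the bone marrow, and adrenaline from the blood. The receptors encoded by Adrb1, Ptger4 and Adora2a act through the stimulatory G protein Gs, which turns on adenylyl cyclases, whereas the cannabinoid receptor encoded by Cnr2 acts through inhibitory Gi proteins, which hold the cyclases back. The cAMP that is made switches on protein kinase A and Epac exchange factors, is broken down by phosphodiesterases, and acts on transcription through CREB and its coactivators. In B cells Cnr2 is known for its high expression among immune cells and for a part in keeping immature and marginal zone B cells in place.

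The markers behind the sort of mature cells are not named in the labels. Each library held an estimated 21530000 to 30060000 reads. Values are in counts per 1000000 reads (CPM), and mean ± SD is given over 5 libraries per group. The summed level of 10 B cell marker genes lay between 17800 and 20563 CPM in Chat+ libraries and between 18611 and 19032 CPM in Chat- libraries. Within that sum single markers differed: Fcer2a (CD23) was at 625 to 906 CPM in Chat+ and 906 to 1025 CPM in Chat- libraries, and Ighm at 5977 to 8446 and 5398 to 6070 CPM. At an unadjusted p below 0.05, 2 of the 10 markers, Fcer2a and Ighd, had lower levels in Chat+, where 1.01% of all genes did, and 0 had higher levels. Chat itself was at 70.6 ± 28.9 CPM in Chat+ and 7.50 ± 7.25 CPM in Chat- libraries (limma, adjusted p = 0.0872), and no library of one group reached the range of the other. Chat- replicate 4 stood apart: 1213 genes were at 0 CPM there and 62 to 682 in the other 9 libraries, and mitochondrial transcripts made up 11.9% of its CPM against 2.27% to 3.85%.

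The stretches just before the start sites are shown as a description, and no relation between them and the levels of the genes was tested. RefSeq promoter entries (build GRCm38.p6) matched 3 of the 4 genes, with 2 start sites for Cnr2. No entry was matched for Adora2a. Each sequence is the 250 bases before the start site, 5′ to 3′ on the strand of the gene, and capitals mark TGACG, the core of the cAMP response element at which CREB binds. The windows are chr19:56721867-56722116 on the plus strand for Adrb1, chr4:135894939-135895188 and chr4:135911430-135911679 on the plus strand for Cnr2, and chr15:5244188-5244437 on the minus strand for Ptger4.
Adrb1: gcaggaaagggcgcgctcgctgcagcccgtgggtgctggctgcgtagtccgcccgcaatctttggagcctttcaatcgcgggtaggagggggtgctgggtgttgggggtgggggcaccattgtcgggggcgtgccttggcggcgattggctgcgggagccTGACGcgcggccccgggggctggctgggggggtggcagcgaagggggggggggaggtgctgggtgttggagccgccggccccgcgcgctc
Cnr2, first start: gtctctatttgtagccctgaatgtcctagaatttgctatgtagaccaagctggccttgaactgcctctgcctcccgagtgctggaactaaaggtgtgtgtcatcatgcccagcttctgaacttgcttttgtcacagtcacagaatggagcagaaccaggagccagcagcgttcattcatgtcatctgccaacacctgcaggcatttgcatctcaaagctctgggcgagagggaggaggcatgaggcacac
Cnr2, second start: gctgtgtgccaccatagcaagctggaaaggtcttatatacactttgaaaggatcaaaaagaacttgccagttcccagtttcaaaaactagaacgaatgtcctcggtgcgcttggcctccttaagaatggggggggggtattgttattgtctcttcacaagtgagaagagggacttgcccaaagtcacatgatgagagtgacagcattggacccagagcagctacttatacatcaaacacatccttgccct
Ptger4: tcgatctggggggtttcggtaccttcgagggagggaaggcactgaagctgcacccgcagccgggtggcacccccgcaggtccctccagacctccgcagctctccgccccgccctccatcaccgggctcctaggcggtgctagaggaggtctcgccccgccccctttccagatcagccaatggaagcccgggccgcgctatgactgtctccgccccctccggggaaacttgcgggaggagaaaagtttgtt
The Adrb1 window was 74.0% G and C with 24 CpG dinucleotides, and the Ptger4 window 66.8% with 19. The windows of Cnr2 held 51.6% and 46.4% G and C with 3 CpG each, against medians of 52.4% and 6 over 32851 promoters of the same length. TGACG or its complement CGTCA was present once, in Adrb1, with its first base 90 bases before the start site (position -90); 17.8% of all windows held it. The full element TGACGTCA, which contains both, was in none of the 4 windows and in 1.55% of all windows. The Ptger4 window held 4 copies of GGGCGG or its complement CCGCCC, a motif of Sp family factors present in 32.7% of all windows, and the Adrb1 window held 1. These matches describe letters in the windows only.

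Adrb1 (ENSMUSG00000035283), which encodes the beta-1 adrenergic receptor best known from the heart, lies on chr19:56722199-56733113, plus strand, in GRCm38. It was detected in every library at a low level. The Chat+ libraries held 1.21, 2.83, 4.68, 2.24 and 3.14 CPM, and the Chat- libraries 2.15, 4.02, 3.30, 4.25 and 0.909 CPM. The groups overlapped over nearly their whole range, with the highest value in Chat+ replicate 3 and the lowest in Chat- replicate 5. The means were 2.82 ± 1.27 CPM in Chat+ and 2.93 ± 1.39 CPM in Chat- cells. The log2 fold change was 0.00 ± 0.48 (SE; adjusted p = 0.9997 by limma), and its 95% interval allowed ratios of Chat+ to Chat- from 0.484 to 2.07. Adrb1 had an estimated 27.3 to 129 reads per library. The coefficient of variation was 45.1% in Chat+ and 47.6% in Chat- libraries, against 6.58% and 10.2% for Cnr2.

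Cnr2 (ENSMUSG00000062585, chr4:135895394-135920207, plus strand), the cannabinoid receptor of immune cells, had the highest CPM of the 4 genes and the narrowest spread. The Chat+ libraries held 176, 201, 202, 183 and 180 CPM, and the Chat- libraries 191, 204, 208, 172 and 228 CPM. The ranges overlapped, and the highest library, Chat- replicate 5, was 1.32 times the lowest, Chat- replicate 4. Mean levels were 189 ± 12.4 CPM in Chat+ and 201 ± 20.6 CPM in Chat- cells, above 93.0% of all genes in the table. The log2 fold change was -0.09 ± 0.09 (adjusted p = 0.999; exact two-sided permutation p = 0.302). The interval of the ratio ran from 0.817 to 1.09, and the log2 fold change was -0.04 without Chat- replicate 5 and -0.14 without Chat- replicate 4, at 3709 to 6843 estimated reads per library.

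**Figure D1:**
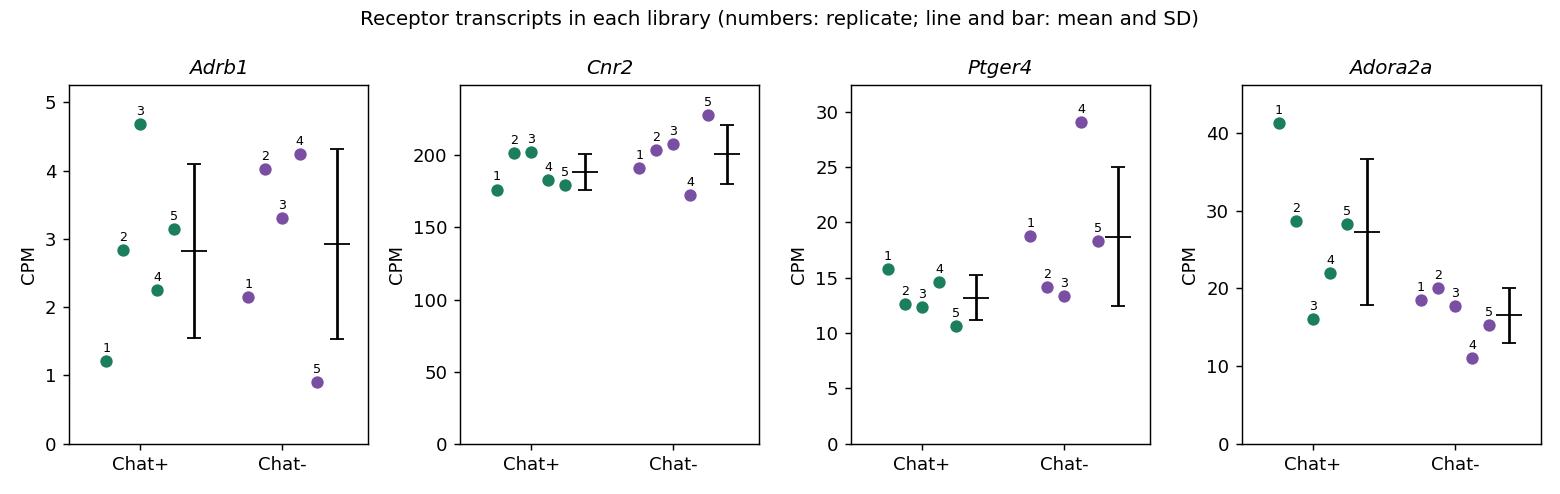
Level of Adrb1, Cnr2, Ptger4 and Adora2a (CPM, 1 panel per gene, each with its own axis) in the 5 Chat+ and 5 Chat- libraries; points are libraries and bars the mean with SD. Groups overlap in all 4 panels, and the Chat+ mean is above the Chat- mean for Adora2a (27.3 against 16.5 CPM) and below it for Ptger4 (13.2 against 18.7 CPM).

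The list of cannabinoid receptors and endocannabinoid enzymes, Cnr2 included, had 12 measured of 14 genes and a median log2 fold change of 0.07. Fitted levels were higher in Chat+ for 7 (58.3%, against 57.0% of all genes) and lower for 5. Gpr18, a receptor for the lipid N-arachidonyl glycine that is highly expressed in lymphocytes, was at 129 ± 23.8 CPM in Chat+ and 139 ± 35.1 CPM in Chat- libraries (log2 fold change -0.10 ± 0.17). Its locus lies opposite Ubac2, a gene that is also in the table. Gpr55, a receptor for lysophosphatidylinositol that also answers to some cannabinoids, had values of 14.3, 15.4, 2.76, 10.1 and 12.9 CPM in Chat+ and 5.44, 3.24, 1.41, 2.79 and 4.52 CPM in Chat- libraries. Of the Chat+ libraries 4 were above every Chat- library, and Chat+ replicate 3 lay within the Chat- range. The difference, a ratio of 2.95 with an interval of 1.41 to 6.18 (log2 fold change 1.56 ± 0.49), had an unadjusted p of 0.0077 and an adjusted p of 0.729 in limma. Faah, the fatty acid amide hydrolase that degrades anandamide, was at 36.0 ± 8.87 CPM in Chat+ and 24.5 ± 4.07 CPM in Chat- libraries (log2 fold change 0.53 ± 0.19, adjusted p = 0.953). Abhd12, which hydrolyses lysophosphatidylserine and 2-arachidonoylglycerol, averaged 46.4 CPM over the 10 libraries, and Naaa, the N-acylethanolamine acid amidase, 40.2 CPM.

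Ptger4 (ENSMUSG00000039942, chr15:5206661-5244187, minus strand) encodes a Gs-coupled prostaglandin E2 receptor. It overlaps Ttc33 and Gm15937 on the opposite strand, and the strand setting of the quantification is not given in the sources used here. The Chat+ libraries held 15.8, 12.6, 12.3, 14.6 and 10.6 CPM, and the Chat- libraries 18.8, 14.1, 13.3, 29.1 and 18.3 CPM. In 3 of the 5 Chat- libraries Ptger4 was above every Chat+ library, with Chat- replicate 4 far above the rest, while Chat- replicates 2 and 3 fell within the Chat+ range. The means were 13.2 ± 2.02 CPM in Chat+ and 18.7 ± 6.28 CPM in Chat- cells. The log2 fold change was -0.46 ± 0.22, a ratio of 0.728 with an interval of 0.523 to 1.02. It did not pass the test (limma, unadjusted p = 0.0597 and adjusted p = 0.999; exact two-sided permutation p = 0.0635).

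The Ptger4 difference rested in part on Chat- replicate 4: without that library the log2 fold change was -0.28 (adjusted p = 0.812), and with libraries weighted by their quality it was -0.12 (adjusted p = 0.908). In the same library the summed level of 12 monocyte and macrophage markers was 231 CPM, against 45.1 to 65.8 CPM in the other Chat- libraries and 62.7 to 114 CPM in the Chat+ libraries. The summed level of 10 stromal and endothelial markers was 552 CPM there and 287 to 412 CPM in the other 9. Within that sum the markers differed: Pecam1 was lowest in Chat- replicate 4, at 177 CPM against 247 to 284 CPM in the other 9. Col1a1 was highest there, at 111 CPM against 7.59 to 42.4 CPM, with 38.5 to 42.4 CPM in Chat+ replicates 2, 3 and 5. The part of these cells in the Ptger4 level was not tested.

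Of the 12 listed genes of prostaglandin E2 signalling, 8 were measured, 3 higher and 5 lower in Chat+ by their fitted values, with a median of -0.12. Ptger1, a receptor for prostaglandin E2 that raises calcium, was near the limit of measurement at 0.649 ± 0.681 CPM in Chat+ and 0.539 ± 0.340 CPM in Chat- libraries (log2 fold change 0.07 ± 0.82). Ptges3, a cytosolic prostaglandin E synthase that is also the Hsp90 co-chaperone p23, averaged 153 CPM. Ptges2, another of the synthases, averaged 12.1 CPM. Abcc4, a transporter that exports prostaglandins and cAMP, was at 22.9 ± 3.24 CPM in Chat+ and 17.3 ± 7.47 CPM in Chat- libraries (log2 fold change 0.53 ± 0.31, or 0.22 without Chat- replicate 4, its lowest library, and 0.23 with quality weights).

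Adora2a (ENSMUSG00000020178, chr10:75316877-75334784, plus strand) encodes a Gs-coupled adenosine receptor that restrains activated lymphocytes. The Chat+ libraries held 41.3, 28.7, 16.01, 22.0 and 28.3 CPM, and the Chat- libraries 18.5, 20.03, 17.8, 11.1 and 15.3 CPM. In 4 of the 5 Chat+ libraries Adora2a was above every Chat- library, and Chat+ replicate 3 lay inside the Chat- range. The means were 27.3 ± 9.41 CPM in Chat+ and 16.5 ± 3.52 CPM in Chat- cells. The log2 fold change was 0.68 ± 0.25, a ratio of 1.599 with an interval of 1.10 to 2.32. The unadjusted p was 0.0173 in limma and 0.0476 in the exact two-sided permutation test, and the p adjusted over all 14450 genes was 0.953, so Adora2a did not pass the threshold of 0.05. Of all genes, 4.51% (651) had an unadjusted limma p below that level.

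The direction for Adora2a was the same under all 19 alternative settings and left-out libraries, with log2 fold changes of 0.51 to 0.85 and adjusted p from 0.229 to 0.99996. The lowest came without Chat+ replicate 1 (0.51) and the highest without Chat+ replicate 3 (0.85). Without Chat- replicate 4 it was 0.54 (adjusted p = 0.637). Summed T cell markers, of which 3 of 12 were measured, lay at 14.03 to 26.1 CPM in Chat+ libraries, 16.5 CPM in Chat- replicate 4 and 26.1 to 33.0 CPM in the other Chat- libraries. Lck made up nearly all of that sum, with Cd4 and Lat at no more than 1.93 CPM in any library and their fitted log2 fold changes, unlike that of Lck, above 0. Of the plasma cell markers 7 of 8 were measured, 4 with a higher and 3 with a lower fitted level in Chat+. Jchain, Mzb1 and Derl3 (3 of the 7, 42.9%) had higher levels in Chat+ at an unadjusted limma p below 0.05, against 3.49% of all genes. The groups overlapped for Jchain, Mzb1, Sdc1, Prdm1, Xbp1 and Irf4. For Derl3 every Chat+ library lay above every Chat- library (1 of 7, 14.3%, against 1.12% of all genes). Sdc1 was at 9.42 to 13.9 CPM in Chat+ and 9.34 to 15.3 CPM in Chat- libraries, and Irf4 at 132 to 165 and 137 to 185 CPM. The summed level of the 7 markers was 407 to 683 CPM in Chat+ and 353 to 430 CPM in Chat- libraries. Jchain, which joins secreted IgM and IgA chains, was at 62.7, 160, 15.1, 33.6 and 213 CPM in Chat+ and 22.2, 26.1, 10.1, 19.4 and 35.8 CPM in Chat- libraries. Chat+ replicate 3, whose Adora2a lay inside the Chat- range, had the lowest Jchain of the Chat+ libraries but the highest Derl3 (6.88 CPM). Chat+ replicate 1, highest in Adora2a (41.3 CPM), had 62.7 CPM of Jchain. Chat+ replicate 5, highest in Jchain, had 28.3 CPM of Adora2a. The part of T cells or plasma cells in the Adora2a level was not tested.

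Around Adora2a, 10 of the 12 listed genes of adenosine reception, formation and clearance were measured. Fitted levels were higher in Chat+ for 8 and lower for 2, with a median log2 fold change of 0.13 against 0.04 over all genes. Nt5e (CD73), the ectoenzyme that forms adenosine from AMP, had values of 3.93, 5.79, 3.60, 7.42 and 10.8 CPM in Chat+ and 2.17, 3.77, 1.13, 6.88 and 2.73 CPM in Chat- libraries. The groups overlapped through Chat- replicates 2 and 4, and the log2 fold change was 1.01 ± 0.47 (adjusted p = 0.999). Entpd1 (CD39), which acts before Nt5e on ATP and ADP, averaged 28.8 CPM, and Dpp4 (CD26), which binds adenosine deaminase, 117 CPM. Slc29a3, a nucleoside transporter of lysosomes, averaged 45.0 CPM. Adora3, a Gi-coupled adenosine receptor, was at 1.31 ± 0.906 CPM in Chat+ and 1.28 ± 0.604 CPM in Chat- libraries, and 23.6% of its 31-base stretches occur in transcripts of other genes, so that count is uncertain.

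The levels of the receptor genes could be ordered per kilobase of exon. In Chat+ cells Gpr18 stood highest at 85.9 ± 15.9 CPM per kb, followed by Cnr2 at 47.4 ± 3.12 and Adora2a at 8.90 ± 3.07, and these 3 genes did not overlap. Then came Gpr55 at 2.98 ± 1.36 and Ptger4 at 1.98 ± 0.304, and the ranges of the last pair overlapped. Adrb1 at 0.834 ± 0.376 was below Ptger4 in every library of the group, and overlapped Adora3 at 0.351 CPM per kb. In Chat- cells the order was the same but for Ptger4 at 2.81 ± 0.945 CPM per kb, which was above Gpr55 at 0.936. There Adora2a overlapped Ptger4 only through Chat- replicate 4, which had the lowest Adora2a (3.61 CPM per kb) and the highest Ptger4 (4.37 CPM per kb). Gpr55 overlapped Adrb1 in Chat- cells. These orders describe levels and were not tested.

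**Figure D2:**
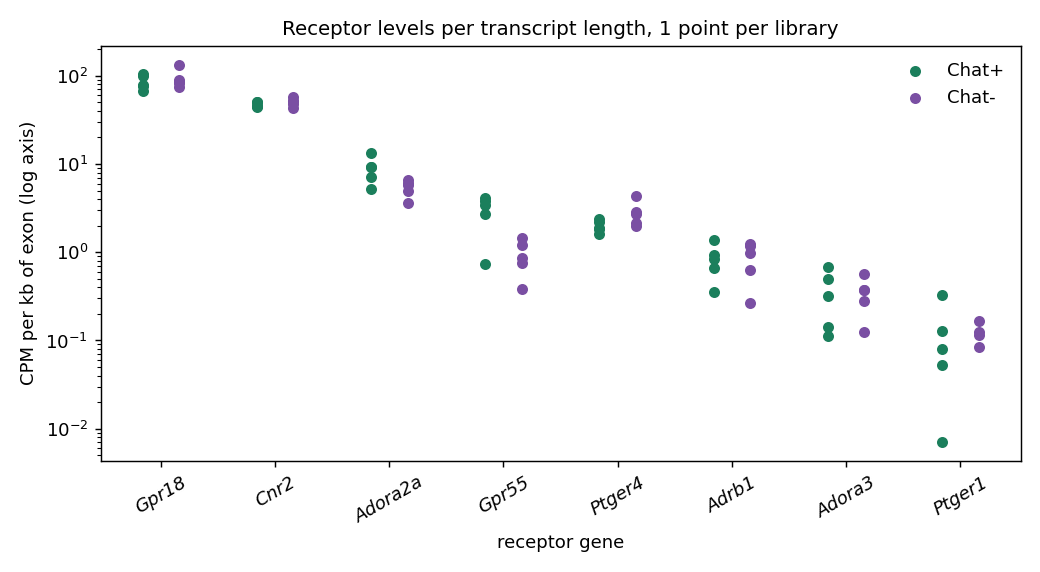
Level per kilobase of exon (CPM per kb, log axis) of 8 adrenergic, cannabinoid, prostaglandin E2 and adenosine receptor genes in each Chat+ and Chat- library. Cnr2 lies far above Adora2a, Ptger4 and Adrb1, and Ptger1 in Chat- replicate 4, at 0, is not drawn.

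**Figure D3:**
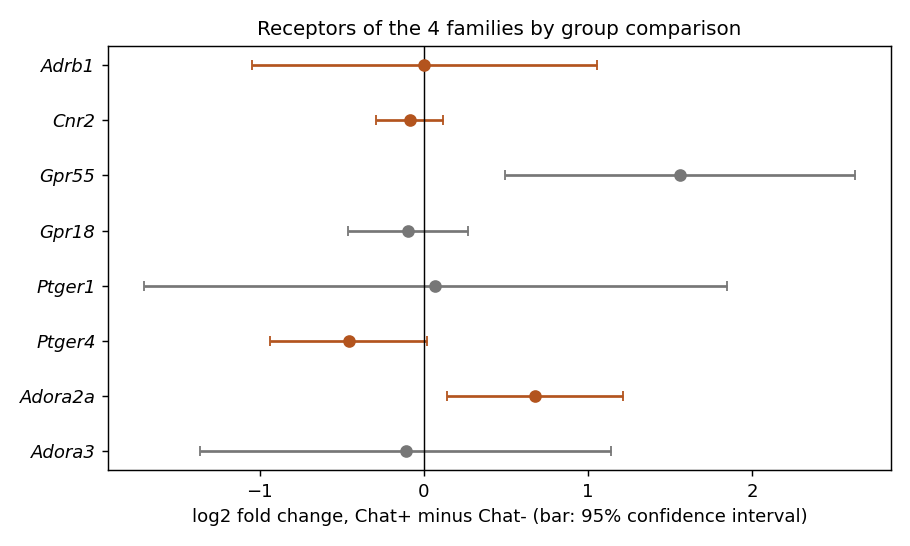
Log2 fold change of Chat+ over Chat- libraries for the 8 receptor genes, with 95% intervals from limma; Adrb1, Cnr2, Ptger4 and Adora2a are in orange and the other 4 in grey. The intervals of Adora2a (0.14 to 1.21) and Gpr55 lie above 0, that of Ptger4 reaches 0.02, and none of the 8 passed after adjustment over all genes.

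The signalling chain behind these receptors was followed in 12 lists holding 175 genes, of which 116 were measured, the 4 receptors included. The lists too were chosen with earlier results of these data known. With limma and Benjamini-Hochberg adjustment over all genes, 0 of the 116 passed in either direction. The background was 1 of 14450 genes (0.00692%), and the smallest adjusted p in the lists was 0.282. At an unadjusted p below 0.05 there were 8 genes with higher levels in Chat+ (6.90%, against 3.49% of all genes) and 1 with a lower level (0.862%, against 1.01%). Without Chat- replicate 4, 0 passed and 17 of the 116 had an unadjusted p below 0.05, as had 1058 of all 14450 genes (7.32%). With voom 0 passed and 12 of the 116 had an unadjusted p below 0.05, as had 652 of all 14450 genes. Fitted values were higher in Chat+ for 61 (52.6%, against 57.0% of all genes) and lower for 55, with a median of 0.01 against 0.04 over all genes. Groups did not overlap for 2 of the 116 genes (1.72%), Grk3 and Pde4a, both with higher values in Chat+, against 1.12% of all genes in that direction, 0.304% in the other and 1.43% in either.

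**Figure D4:**
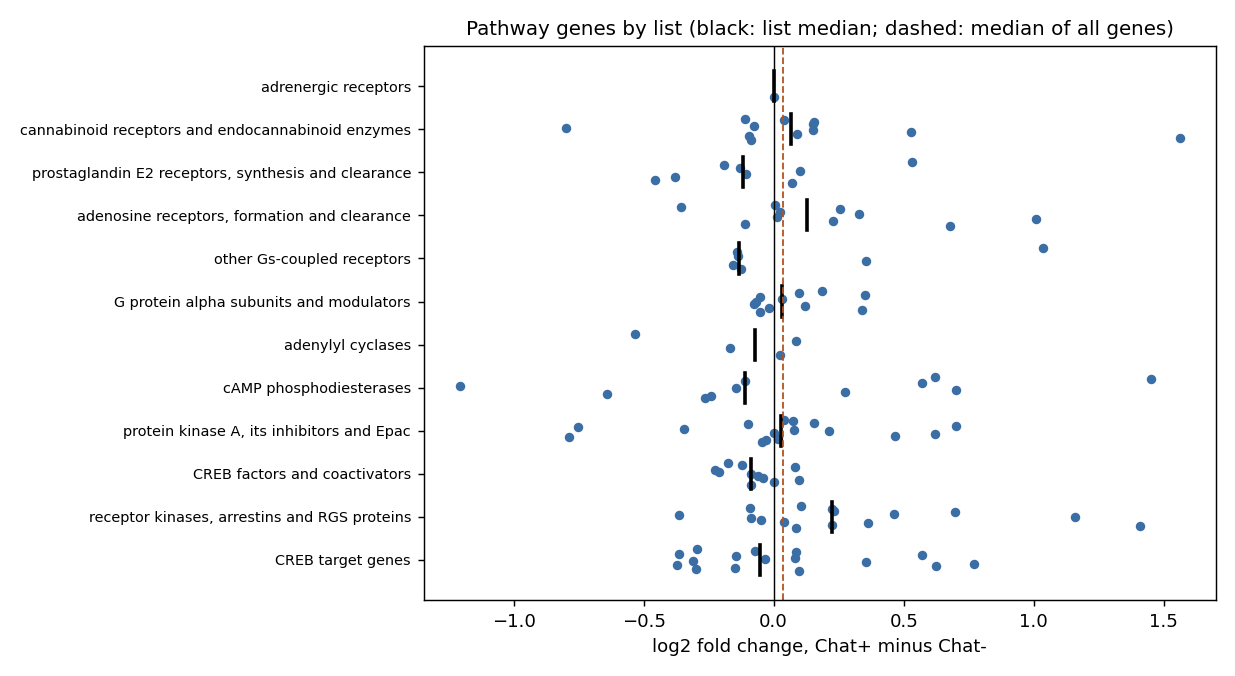
Log2 fold change (Chat+ over Chat-) of each measured gene in the 12 lists of receptors, enzymes and targets of cAMP signalling; points are genes and bars list medians. The medians lie between -0.13 and 0.22, beside a median of 0.04 over all 14450 genes.

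The list of other Gs-coupled receptors was mostly unmeasured, with 6 of 33 genes in the table, 2 higher and 4 lower (median -0.13). Of the 2 higher genes 1 was Ramp1, a receptor accessory protein at a mean of 0.518 CPM (log2 fold change 0.36 ± 0.89). Gpr174, a lysophosphatidylserine receptor of lymphocytes, averaged 143 CPM, with 103 to 231 CPM over the libraries. Calcrl, the receptor for calcitonin gene-related peptide and adrenomedullin, averaged 25.3 CPM and the proton sensor Gpr65 25.1 CPM. Hrh2, a histamine receptor, averaged 5.99 CPM. For Gpr65 the log2 fold change was -0.14 ± 0.18, and for Lhcgr, the luteinising hormone receptor, 1.04 ± 0.82, both with adjusted p = 0.999. The Lhcgr value was 0.37 without Chat- replicate 4, where it was at 0 CPM, and 0.09 with quality weights.

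Among G protein alpha subunits and their modulators 11 of 14 were measured, 6 higher and 5 lower (median 0.03). Gnai2, an inhibitory subunit that signals for receptors such as that of Cnr2, averaged 684 CPM (546 to 764). Gnas, which encodes the stimulatory subunit used by the receptors of Adrb1, Ptger4 and Adora2a, averaged 554 CPM (443 to 638). Gna13 averaged 213 CPM and Gnai3 160 CPM. The pair with the smallest p in this list, Gna15 (log2 fold change 0.35 ± 0.24) and Ric8b (0.19 ± 0.18), had adjusted p = 0.999. Without Chat- replicate 4 they were 0.17 and 0.11, and without Chat+ replicate 2 they were 0.21 and 0.11.

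Of 10 adenylyl cyclase genes listed, 4 were measured, 2 higher and 2 lower (median -0.07). Adcy7, the cyclase known as the main isoform of lymphocytes, was at 329 ± 52.4 CPM in Chat+ and 309 ± 33.4 CPM in Chat- libraries. Its log2 fold change was 0.09 ± 0.13, and 0.04 to 0.19 with libraries left out. The other 3 were far lower, with means of 14.96 CPM for Adcy3, 1.34 CPM for Adcy9 and 1.27 CPM for Adcy6. Adcy9 had a log2 fold change of -0.53 ± 0.77, though its means were 1.33 CPM in Chat+ and 1.34 CPM in Chat- libraries. Chat+ replicate 3 was at 0 CPM. Per kilobase Adcy7 stood at 47.4 CPM and Adcy3 at 2.39.

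Phosphodiesterases that break down cAMP gave 11 measured of 16, 5 higher and 6 lower (median -0.11). Pde7a at 225 CPM, Pde4b at 193 CPM, Pde3b at 59.7 CPM and Pde1b at 37.5 CPM had the highest means. Pde4a, a cAMP-specific phosphodiesterase, had values of 30.8, 23.0, 28.3, 23.8 and 23.1 CPM in Chat+ and 20.5, 17.0, 17.8, 10.9 and 14.2 CPM in Chat- libraries. Every Chat+ library lay above every Chat- library, by a narrow margin between Chat+ replicate 2 and Chat- replicate 1. The means of 25.8 ± 3.58 and 16.1 ± 3.67 CPM gave a ratio of 1.62 (interval 1.23 to 2.14; log2 fold change 0.70 ± 0.18), with adjusted p = 0.422. Pde8a was at 30.6 ± 12.1 CPM in Chat+ and 18.5 ± 2.97 CPM in Chat- libraries (log2 fold change 0.62 ± 0.29, adjusted p = 0.999).

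The protein kinase A list, with its inhibitors, anchors and the Epac factors, had 16 measured of 17, 10 higher and 6 lower (median 0.03). The anchors Akap13 (596 CPM) and Akap8 (338 CPM), the regulatory subunit Prkar1a (361 CPM) and the inhibitor Pkig (145 CPM) had the highest means. Akap5, an anchor that holds protein kinase A near receptors and channels, was at 9.35 ± 2.62 CPM in Chat+ and 5.75 ± 1.63 CPM in Chat- libraries (log2 fold change 0.70 ± 0.27). Prkar2a, another regulatory subunit, was at 24.6 ± 7.37 and 17.2 ± 2.01 CPM (0.47 ± 0.20). Both had adjusted p = 0.999.

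Receptor kinases, arrestins and RGS proteins, which end signalling at receptors and G proteins, gave 15 measured of 16. Of these 11 were higher (73.3%, against 57.0% of all genes) and 4 lower, with a median of 0.22. Grk3 (chr5:112910482-113015791, minus strand), a kinase that phosphorylates active receptors, had the smallest p of all 116 genes. The Chat+ libraries held 9.84, 10.3, 11.3, 11.5 and 10.5 CPM, and the Chat- libraries 5.44, 6.41, 4.44, 1.77 and 3.43 CPM. The groups were apart, the Chat+ libraries lay close together, and Chat- replicate 4 was the lowest. The ratio was 2.66 with an interval of 1.64 to 4.29 (log2 fold change 1.41 ± 0.32, adjusted p = 0.282). With libraries weighted by quality the log2 fold change was 1.05 and Grk3 passed at adjusted p = 0.0423, in a fit that called 105 genes (0.727%). Rgs2, which turns off G protein alpha subunits and is itself a CREB target, was at 34.1 ± 4.90 CPM in Chat+ and 44.0 ± 6.799 CPM in Chat- libraries (log2 fold change -0.36 ± 0.15, adjusted p = 0.999). Grk2 (804 CPM) and Grk6 (522 CPM) had the highest means of this list, above Rgs19 (126 CPM) and Arrb1 (103 CPM).

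CREB factors and coactivators gave 11 measured of 11, 2 higher (18.2%, against 57.0% of all genes) and 9 lower, with a median of -0.09 against 0.04 over all genes. Ep300 (265 CPM) and Crebbp (162 CPM), the acetyltransferases that CREB recruits, were in every library, as were Creb1 (165 CPM) and its coactivator Crtc2 (135 CPM). Crtc3 and Sik3, a kinase that holds the Crtc proteins in the cytoplasm, had log2 fold changes of -0.22 ± 0.13 and -0.18 ± 0.10. Crtc3 was at -0.12 without Chat+ replicate 2, and Sik3 at -0.12 without Chat- replicate 4. Among CREB target genes 16 of 17 were measured, 7 higher and 9 lower (median -0.05). Btg2 (366 CPM), Pde4b (193 CPM), Sik1 (89.6 CPM) and Junb (87.4 CPM) had the highest means. Fos, an immediate early gene, was at 7.83 ± 2.91 CPM in Chat+ and 4.71 ± 2.0005 CPM in Chat- libraries (log2 fold change 0.77 ± 0.35, adjusted p = 0.999).

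**Figure D5:**
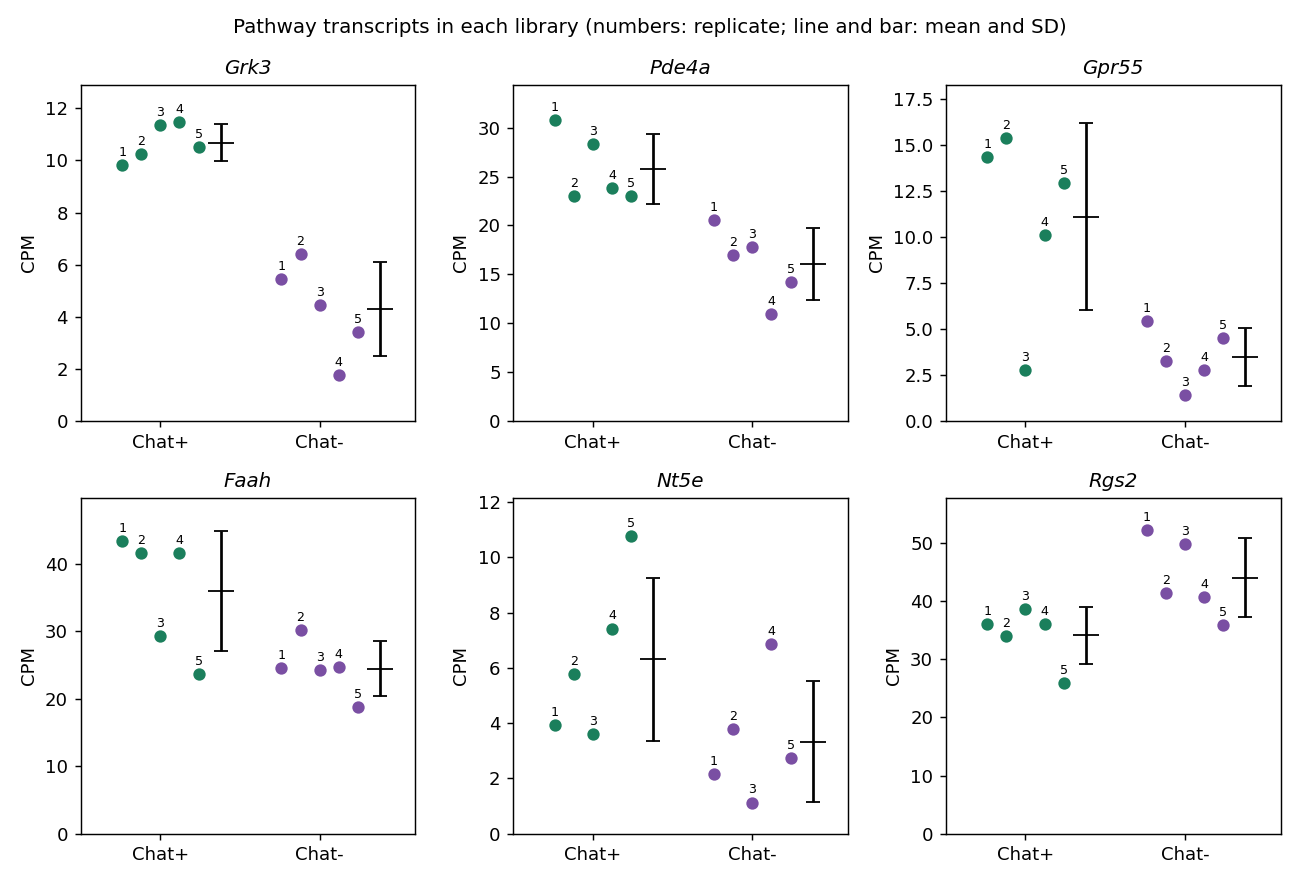
Level (CPM) in each library of Grk3, Pde4a, Gpr55, Faah, Nt5e and Rgs2, by group; points are libraries and bars the mean with SD. The Chat+ and Chat- libraries do not overlap for Grk3 and Pde4a, and overlap for the other 4 genes.

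For each receptor gene the 5 genes with the highest Pearson correlation of log2 values over the 10 libraries were taken from 9244 named protein-coding genes. For Adrb1 these were Fastkd3 (r = 0.91), Taf2, Dnajc18, Gramd3 and Vamp4 (0.88), and for Cnr2 Rara (0.93), Tesk1, Cog2, Ythdf1 and Nfic (0.87). Without Chat- replicate 4 these coefficients stayed between 0.83 and 0.91. For Ptger4 they were Zfp963 (0.90), Oasl2, C1galt1c1, Zfp36l1 and Siah1a (0.87), and without Chat- replicate 4 the coefficients were 0.64 to 0.79. For Adora2a they were Lin9 (0.92), Kcnn4 (0.92), Prmt3, Hemk1 and Nt5m (0.88), at 0.82 to 0.92 without that library. These are the highest of many coefficients over 10 libraries that share depth and composition, and they carry no test.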

How the data were processed

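RNA was extracted with the RNeasy Plus Micro kit and made into directional libraries, per the labels' protocols. The submitters' processing notes name cutadapt 2.6, Salmon 0.14.2 and the build GRCm38.p6. The annotation, strand setting and normalization tool were not given in the sources used here. The deposited table holds log2 values for 14450 genes in 10 libraries, whose lowest value is the same in all libraries. They were read as log2 of counts per 1000000 reads (CPM) plus an offset of 0.115 CPM, which is 3 reads at the mean depth, and the recovered CPM sum to 1000000 in each library. Values below 3 CPM gave whole reads, within 0.001, in 35.4% to 48.7% of cases. Whole read counts were thus not recovered, and edgeR and DESeq2 were not run. Depth was estimated from those steps, and voom was run on reads estimated from CPM and that depth.

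All 14450 genes were fitted on the deposited log2 values with limma 3.58.1 (R 4.3.3), Chat+ against Chat- over 10 libraries, with a mean-variance trend and no filter on low values. P-values were adjusted by Benjamini-Hochberg with a threshold of 0.05. Fold changes are on the scale of log2(CPM + offset), which shrinks differences between low values. A library at 0 CPM can still move the mean log2 value of a low gene strongly, as for Adcy9 and Lhcgr. Single genes were also compared by an exact two-sided permutation test, whose smallest p over 252 assignments is 0.0079. The fits were tested on simulated data. The alternatives were TMM (recomputed here) and median-of-ratios scaling, an offset of 1 CPM, a mean of at least 1 CPM, no trend, library quality weights, voom, a replicate block, and leaving out each library.

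Symbols and coordinates come from GENCODE M21 (GRCm38), which matched 14374 of the gene IDs, and levels per kilobase use its merged exon length. Promoters come from RefSeq. The genes and lists were chosen with earlier results of these data known. Named were the 4 receptor genes, other measured receptors for the same ligands (1 is not reported here), in each list the 4 highest genes and the 2 with the smallest p, and the 5 genes most like each receptor gene among those with a mean of at least 5 CPM. Pde3b's values under quality weights were added after they were seen.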

Additional observations from a re-analysis of the deposited data

Results flagged for a closer look

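Among 54 groups of 5 libraries (27 genes), 4 held a library far from the other 4, where chance flags about 1 in 20 groups. Gpr55 was at 2.76 CPM in Chat+ replicate 3, against 10.1 to 15.4 CPM in the other Chat+ libraries. Fos was at 13.0 CPM in the same library, against 6.20 to 7.25 CPM. In Chat- replicate 4, Sik3 was at 72.5 CPM, against 56.8 to 60.6 CPM in the other Chat- libraries. Ptger1 was listed at 0 CPM there, against 0.466 to 0.907 CPM.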

How the results depend on the processing

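The 1 gene called over the whole table became 3 without the trend, 0 with voom (652 at an unadjusted p below 0.05), 105 with quality weights and 1 to 6 with each library left out (6 without Chat+ replicate 5 or Chat- replicate 4). Of the pathway genes, 0 passed except with quality weights, where 2 did: Grk3 and Pde3b (log2 fold change 0.52 against 0.28, adjusted p = 0.0423). The labels do not pair equal replicate numbers, and whole-table correlations were -0.20 to 0.23, 3 of 5 highest with their own number. Summed neutrophil markers were at 144, 55.8, 33.4, 94.1 and 70.8 CPM in Chat+ replicates 1 to 5. In Chat- replicates 1 to 5 they were at 127, 70.5, 52.7, 99.2 and 73.9 CPM, in the same order. Monocyte and macrophage markers differed, with replicate 4 at 62.9 CPM in Chat+ and 231 CPM in Chat-. Whether equal numbers share mice was not settled. With a replicate block 6 genes were called, or 82 leaving out Chat- replicate 4, a combination chosen after seeing the data; Adora2a kept 0.68 ± 0.21 (adjusted p = 0.764).

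Cnr2 (-0.14 to -0.04), Ptger4 (-0.56 to -0.12) and Adora2a kept their direction under every alternative run, and none of the 4 receptor genes passed. Adrb1 reversed to -0.0320 with TMM, -0.0377 with median-of-ratios, -0.0151 with an offset of 1 CPM and -0.40 with quality weights, and spanned -0.35 to 0.26 with libraries left out. Of 23 other genes, 18 never reversed. Quality weights gave -0.25 for Ptger1. The block without Chat- replicate 4 gave 0.12 for Gpr18, -0.36 for Ptger1 and 0.0398 for Gpr65. Left-out libraries spanned -0.17 to 0.0440 for Gpr18, -0.48 to 0.53 for Ptger1, -0.40 to 0.18 for Adora3, -0.23 to 0.00180 for Gpr65 and -0.94 to 0.23 for Adcy9. The cause was not tested. Ptger1 had no value at a mean of at least 1 CPM. edgeR and DESeq2 were not run, since whole reads were not recovered.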
